A study of Mus musculus with 6 samples.

Results

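The genes described here were read by probes detected in both kinds of mouse primordial germ cell-like cells (PGCLCs) and not in mouse embryonic stem cells (mESCs). Expression was measured on Illumina mouse BeadChips, with 2 arrays in each of 3 groups of male 129 x MF1 cells that all carry a Nanog transgene. Nanog PGCLCs were made from epiblast-like cells by 4 days in GK15 medium with doxycycline at 0.7 µg/ml, which switches the transgene on. Cytokine PGCLCs had 4 days in GK15 with EGF at 50 ng/ml, SCF at 100 ng/ml, BMP4 and BMP8A at 500 ng/ml each, and LIF at 1000 U/ml. The mESCs grew in N2B27 on fibronectin with LIF (1000 U/ml) and the inhibitors CHIR99021 (3 µM, against GSK3) and PD0325901 (1 µM, against MEK). The promoter of the transgene, the number of clones and any sorting of the PGCLCs are not given in the sources used here. Medium, time in culture and cell state all changed between PGCLCs and mESCs and cannot be told apart. The PGCLC groups differed both in doxycycline with the induced transgene and in EGF, SCF, BMP4, BMP8A and LIF. The parts of these in any difference between the groups cannot be told apart either.

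Members were chosen by measured values. A probe with a gene name had to have a detection p below 0.01 on all 4 PGCLC arrays and of at least 0.01 on both mESC arrays. The detection p is the rank of a probe's signal within that array's negative controls. Its mean value in the authors' log2 table also had to lie at least 0.4 above the mESC mean in each PGCLC group. Of 10057 named probes, 581 had this detection pattern and 177 of them both differences, and 13 of these were left out by symbol (among others Dusp4, Egr1 and the solute carriers). The remaining 164 probes read 157 of 7312 named genes. The contrast with mESCs therefore defined the members, and all values of that contrast are descriptions with no test. The difference between the PGCLC groups was not used by the rule and was tested.

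PGCLCs are a culture model of primordial germ cells, the embryonic founders of sperm and eggs, which arise from the epiblast under BMP signals. In the cells of this model a germ cell programme is switched on while much of the pluripotency network stays active. mESCs in the medium used here correspond to a naive, earlier state of the epiblast, and epiblast-like cells, the step between both, to a later one. In bulk samples, fewer cells of a type and less RNA per cell cannot be told apart.

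Nanog, the induced gene, and marker genes were read first as a check of the group labels. On 1 of its 2 named probes Nanog read 12.73 and 12.60 in Nanog PGCLCs, 10.94 and 10.80 in cytokine PGCLCs, and 11.49 and 11.56 in mESCs (Nanog minus cytokine 1.80 ± 0.10, limma adjusted p = 3.45e-05). On the other it read 12.05 and 12.25 in Nanog PGCLCs, 12.53 and 12.53 in cytokine PGCLCs, and 12.34 and 12.47 in mESCs (-0.38 ± 0.11, adjusted p = 0.0414). The probes ran in opposite directions, and no source used here says which of them reads the transgene's transcript, which limits Nanog as a check of the labels. Of 19 early germ cell markers, 14 had a named probe, and 13, 13 and 10 of them were detected on both arrays of Nanog PGCLCs, cytokine PGCLCs and mESCs. The summed intensity of these markers was 39260 to 40891 in Nanog PGCLCs, 42537 to 42558 in cytokine PGCLCs and 23456 to 23777 in mESCs. All 12 core pluripotency markers with a named probe were detected on both Nanog PGCLC arrays, against 11 in cytokine PGCLCs and 11 in mESCs. None of the 19 early and 25 late germ cell markers was itself a member, but only 8 of the late markers had a named probe. Of these, 5, 6 and 4 were detected on both arrays of Nanog PGCLCs, cytokine PGCLCs and mESCs. Their summed intensity was 2176 to 2191, 2103 to 2126 and 3226 to 3331 in the same groups. Between 8788 and 10028 of 45281 probes were detected per array. With 2 arrays in a group, precision is limited by their number. One mESC array stood apart for alpha-globin, since Hba-a1 read 11.42 on mESC replicate 1 and 6.36 on mESC replicate 2. The rule applied without mESC replicate 1 gave 204 probes, and without mESC replicate 2 it gave 186.

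Promoter sequence was available for 134 of the 157 genes, in 183 windows of 300 bases that run from 250 before to 50 after a RefSeq transcription start (build GRCm38.p6). The windows of 7 genes are shown, 5′ to 3′, because these genes carry the results: Kndc1 and Tex14 had the highest smaller bound over mESCs (defined below) among single-probe members, Pdzk1, Aif1l and Bcl2l11 were higher in Nanog PGCLCs, and Ap3b2 and Rec8 were lower. Capitals mark matches, on either strand, to the TFAP2 core (GCCNNNGGC), the E2F core (TTCCCGCC), the CCAAT box (CCAAT) and the GC box (GGGCGG). A match is a description of the letters and not a binding site.
Kndc1: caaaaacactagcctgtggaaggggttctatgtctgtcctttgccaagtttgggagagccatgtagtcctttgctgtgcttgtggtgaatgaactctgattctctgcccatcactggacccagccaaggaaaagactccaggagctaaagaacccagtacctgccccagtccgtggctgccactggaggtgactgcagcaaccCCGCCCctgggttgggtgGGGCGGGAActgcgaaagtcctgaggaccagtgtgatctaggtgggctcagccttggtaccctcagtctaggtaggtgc
Tex14: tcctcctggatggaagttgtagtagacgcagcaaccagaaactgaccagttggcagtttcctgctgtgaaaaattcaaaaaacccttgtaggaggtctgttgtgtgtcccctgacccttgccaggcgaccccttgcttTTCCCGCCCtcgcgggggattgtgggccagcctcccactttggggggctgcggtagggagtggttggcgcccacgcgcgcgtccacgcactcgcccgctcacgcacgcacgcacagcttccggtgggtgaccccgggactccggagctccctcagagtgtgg
Pdzk1: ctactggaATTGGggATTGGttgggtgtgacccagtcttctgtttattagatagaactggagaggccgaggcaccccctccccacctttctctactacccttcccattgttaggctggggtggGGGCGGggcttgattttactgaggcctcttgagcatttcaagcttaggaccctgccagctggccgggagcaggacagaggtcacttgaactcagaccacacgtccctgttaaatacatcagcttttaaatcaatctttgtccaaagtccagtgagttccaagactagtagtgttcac
Aif1l: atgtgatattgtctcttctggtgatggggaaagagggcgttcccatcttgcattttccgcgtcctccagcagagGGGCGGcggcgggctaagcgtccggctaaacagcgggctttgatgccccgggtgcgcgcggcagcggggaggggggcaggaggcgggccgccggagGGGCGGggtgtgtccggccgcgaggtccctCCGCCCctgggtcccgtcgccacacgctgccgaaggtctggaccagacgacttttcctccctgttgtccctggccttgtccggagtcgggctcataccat
Bcl2l11: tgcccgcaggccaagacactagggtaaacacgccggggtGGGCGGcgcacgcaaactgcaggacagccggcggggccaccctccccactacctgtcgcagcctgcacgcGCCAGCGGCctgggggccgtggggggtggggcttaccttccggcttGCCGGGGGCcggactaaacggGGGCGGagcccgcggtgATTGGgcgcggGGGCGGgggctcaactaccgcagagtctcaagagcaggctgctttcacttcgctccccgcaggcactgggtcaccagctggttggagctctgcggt
Ap3b2: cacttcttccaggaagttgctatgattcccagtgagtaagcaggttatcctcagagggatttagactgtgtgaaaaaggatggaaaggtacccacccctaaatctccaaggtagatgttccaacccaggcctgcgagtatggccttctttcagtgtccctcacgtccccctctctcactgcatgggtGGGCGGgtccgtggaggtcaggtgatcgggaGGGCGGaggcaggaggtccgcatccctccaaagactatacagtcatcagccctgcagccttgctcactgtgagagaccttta
Rec8: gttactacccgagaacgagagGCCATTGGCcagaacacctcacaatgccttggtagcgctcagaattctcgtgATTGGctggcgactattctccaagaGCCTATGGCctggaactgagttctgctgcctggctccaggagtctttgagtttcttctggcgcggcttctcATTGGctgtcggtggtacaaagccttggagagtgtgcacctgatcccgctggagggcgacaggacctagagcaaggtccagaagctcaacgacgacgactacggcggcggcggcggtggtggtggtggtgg

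The Kndc1 window lies at chr7:139894446-139894745 (plus strand) and the Tex14 window at chr11:87404815-87405114 (plus strand), and in both an E2F core overlaps a GC box. The Pdzk1 window lies at chr3:96829815-96830114 (plus strand), with a pair of CCAAT boxes and a GC box. The Aif1l window lies at chr2:31950053-31950352 (plus strand) and holds 3 GC boxes. The Bcl2l11 window lies at chr2:128125788-128126087 (plus strand) and holds 6 matches, among them a pair of TFAP2 cores. The Ap3b2 window lies at chr7:81493876-81494175 (minus strand), with 2 GC boxes. The Rec8 window lies at chr14:55617916-55618215 (plus strand), where a TFAP2 core overlaps a CCAAT box. Pdzk1 and Bcl2l11 have a further window each that is not shown.

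CpG content differed widely among these windows. The ratio of observed to expected CpG was 0.17 in Kndc1, 0.21 in Pdzk1 and 0.32 in Ap3b2. It was 0.69 in Tex14, 0.72 in Bcl2l11 and Rec8 and 0.85 in Aif1l. Over all member windows the median ratio was 0.69, against 0.78 over 6996 windows of the other tested genes and 0.38 over all 32841 windows. A ratio of at least 0.6 was found in 61.2% of member windows, 73.9% of windows of other tested genes and 35.8% of all windows. The GC content had a median of 60.7% in members and in the other tested genes, and of 52.7% in all windows.

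Among the motifs, the TFAP2 core was in 23.5% of member windows, 25.5% of windows of other tested genes and 16.6% of all windows. The GC box was in 66.7%, 64.2% and 35.7% of the same groups, and the CCAAT box in 38.8%, 39.2% and 37.4%. The E2F core was in 4.92%, 4.29% and 2.19%. Members and other tested genes thus had shares of like size, and both lay above all windows for the GC box and both cores. The AP-1 site (TGACTCA) was in 1 member window (0.546%), against 3.32% of windows of other tested genes and 5.2% of all windows. The TATA box (TATAAA) was in 3.83%, 7.39% and 13.6%. These shares were not tested, some genes have several windows, and in 23 member windows matches of different motifs overlap.

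Levels of the members were modest. On the normalized log2 scale used below (background corrected and quantile normalized here), the median member read 7.99 in Nanog PGCLCs, 7.90 in cytokine PGCLCs and 6.31 in mESCs. The median of all 10673 tested probes was 8.39, 8.40 and 8.39 in these groups. In PGCLCs 35 of 164 members lay above the median level of all tested probes. Detection p was 0 on all 4 PGCLC arrays for 135 members. On the mESC arrays the median detection p was 0.147 and 0.15, 115 members were at or above 0.05 on both and 21 were below 0.05 on both, so part of the set lay close to the detection limit in mESCs. At the edge of the rule, the smaller of both differences was 0.401 for Tial1 and Nhsl1 and 0.402 for Egln3 inside it, and 0.395 for Pxylp1, 0.396 for Osbpl3 and 0.398 for Ppox outside it.

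Because no member was detected in mESCs, its distance from them is given as a lower bound. The bound sets the PGCLC mean against, per mESC array, the higher of the member's own signal and the lowest normalized signal of any detected probe. It ranged up to 8.87-fold in Nanog PGCLCs (median 1.83) and up to 6.5-fold in cytokine PGCLCs (median 1.73). In both groups 35 members reached at least 2-fold. For 9 members the bound was under 1 in at least 1 group, and no fold is given there.

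**Figure D1:**
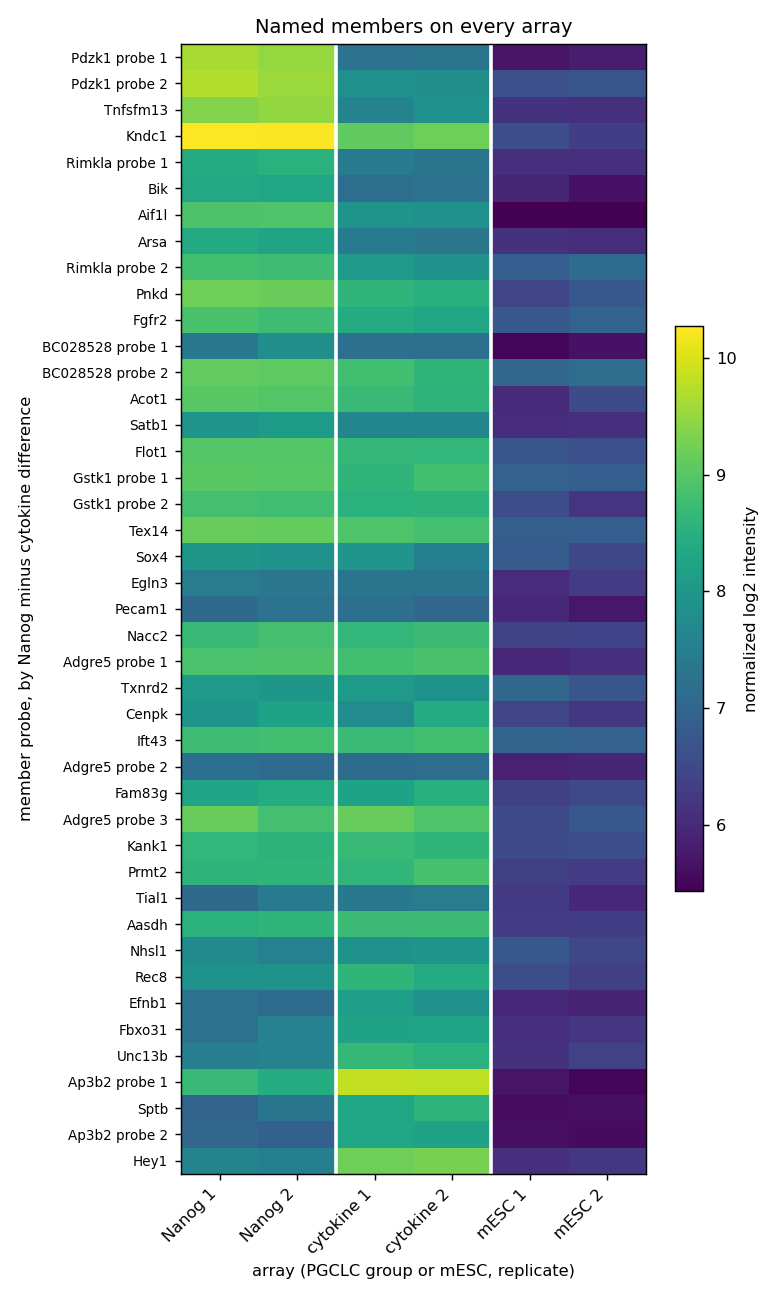
Normalized log2 intensity (colour scale) of the named member probes (vertical axis, ordered by the Nanog minus cytokine difference) on the 6 arrays (horizontal axis, 2 per group). Pdzk1 and Kndc1 are brightest on the Nanog arrays, Hey1 and Ap3b2 on the cytokine arrays, and all probes are dimmest on the mESC arrays.

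Kndc1, a guanine nucleotide exchange factor for Ras proteins known from brain, had the highest bound of all members. It read 10.27 and 10.25 in Nanog PGCLCs, 9.08 and 9.21 in cytokine PGCLCs, and 6.60 and 6.33 in mESCs. The bound was at least 8.87-fold in Nanog PGCLCs and at least 4.08-fold in cytokine PGCLCs. The arrays of the PGCLC groups did not overlap, as for 62.4% of all tested probes. Adgre5, the adhesion receptor CD97 of blood cells and other tissues, was read by 3 member probes at different levels. The brightest read 9.14 and 8.83 in Nanog PGCLCs, 9.15 and 8.93 in cytokine PGCLCs, and 6.56 and 6.75 in mESCs (at least 3.67-fold and 3.8-fold). Its second probe read 8.90 and 8.92 in Nanog PGCLCs, 8.81 and 8.88 in cytokine PGCLCs, and 5.97 and 6.08 in mESCs. Its dimmest probe read 7.19 and 7.13 in Nanog PGCLCs, 7.14 and 7.16 in cytokine PGCLCs, and 5.88 and 5.95 in mESCs. On all 3 probes of Adgre5 the PGCLC groups lay within 0.07 log2 units of each other, and none was called.

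Tex14, a protein of the bridges that join germ cells to each other, read 9.15 and 9.12 in Nanog PGCLCs, 8.94 and 8.83 in cytokine PGCLCs, and 6.90 and 6.88 in mESCs. Ift43, a subunit of the intraflagellar transport complex of cilia, read 8.76 and 8.81 in Nanog PGCLCs, 8.73 and 8.80 in cytokine PGCLCs, and 7.01 and 6.96 in mESCs. Nacc2, a transcriptional repressor with a BTB domain, read 8.69 and 8.85 in Nanog PGCLCs, 8.64 and 8.75 in cytokine PGCLCs, and 6.43 and 6.41 in mESCs. For Ift43 and Nacc2 the arrays of both PGCLC groups overlapped, whereas for Tex14 the Nanog arrays were above the cytokine arrays without passing the test. The bounds over mESCs were at least 4.05-fold and 3.4-fold for Tex14 and at least 3.19-fold and 3.14-fold for Ift43, in Nanog and cytokine PGCLCs. For Nacc2 they were at least 3.15-fold and 2.99-fold.

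**Figure D2:**
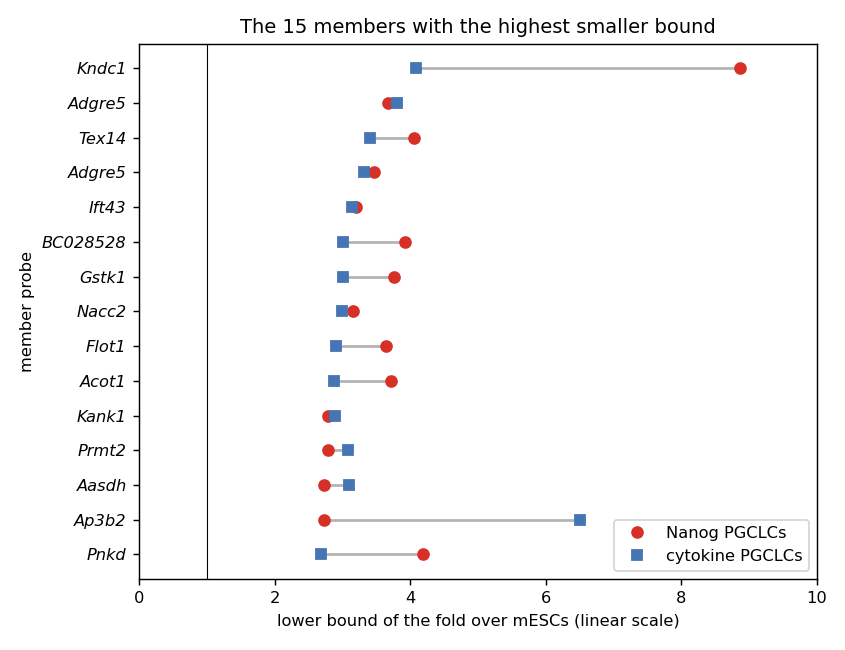
Lower bound of the fold over mESCs (horizontal axis, linear scale) in Nanog PGCLCs (circles) and cytokine PGCLCs (squares) for the 15 member probes with the highest smaller bound (vertical axis). The line at 1 marks no difference. Kndc1 (8.87 and 4.08) and Ap3b2 (2.72 and 6.5) have the widest gaps between the groups.

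Several other members with high bounds were enzymes. Gstk1, a glutathione transferase of mitochondria and peroxisomes, read 9.03 and 9.02 in Nanog PGCLCs, 8.60 and 8.80 in cytokine PGCLCs, and 6.95 and 6.87 in mESCs on 1 of its 2 member probes. Acot1, an acyl-CoA thioesterase, read 9.03 and 8.98 in Nanog PGCLCs, 8.69 and 8.58 in cytokine PGCLCs, and 6.02 and 6.55 in mESCs. Acot1 has close copies in the genome, and the probe may share signal with them. Prmt2, an arginine methyltransferase, read 8.58 and 8.60 in Nanog PGCLCs, 8.62 and 8.86 in cytokine PGCLCs, and 6.35 and 6.29 in mESCs. Kank1, a regulator of actin at the cell edge, read 8.64 and 8.55 in Nanog PGCLCs, 8.70 and 8.60 in cytokine PGCLCs, and 6.52 and 6.59 in mESCs. Aasdh read 8.53 and 8.59 in Nanog PGCLCs, 8.75 and 8.74 in cytokine PGCLCs, and 6.29 and 6.33 in mESCs. These genes did not pass the test between the PGCLC groups (limma adjusted p = 0.06 for the Gstk1 probe and 0.153 for Acot1). Both crossed the threshold under other settings (adjusted p = 0.0255 and 0.0216 on the authors' values).

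Between the PGCLC groups, 31 of 164 members (18.9%) were higher and 13 (7.93%) were lower in Nanog PGCLCs, and 120 were not called. Over all 10673 tested probes, 20.1% were called, 10.4% higher and 9.72% lower. The share of higher calls among members thus lay above the background, and the share of lower calls was near it. Among the 7585 other named probes detected on all 4 PGCLC arrays, 9.19% were higher and 8.71% lower. The median difference over members was 0.09 log2 units, against -0.01 over all tested probes. The rule sets a floor under both PGCLC groups, which limits how low a member can lie in either. The median absolute difference was 0.27 log2 units over members and 0.18 over all tested probes. Calls of at least 2-fold were made for 7 of 164 members higher and 5 lower. Over all 10673 tested probes they were 122 (1.14%) and 118 (1.11%), so these shares were larger among members. The arrays of the groups did not overlap for 113 members (68.9%), against 62.4% of all tested probes. Higher calls made up 70.5% of the calls in members and 51.7% of all calls, and 78.6% and 64.8% when arrays were scaled only to their medians.

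Whether replicates are separate cultures is not stated in the labels. The p-values therefore reflect array-to-array spread alone, and that spread may be technical. Of the 44 member calls, 21 (14 higher and 7 lower) were kept in the 16 other settings that fit all 164 members, those that leave out an array included, and in the fit with 1 probe per gene where it holds the probe. The other 23 were lost in at least 1 setting. The 21 were probes of Pdzk1, Tnfsfm13, Kndc1, Rimkla, Bik, Aif1l, Arsa, Copz2, Pdyn, Mapk13, Bcl2l11 and Dynlt3 on the higher side and of Hey1, Ap3b2, Sptb, Unc13b, Efnb1 and Fbxo31 on the lower side. Leaving out 1 PGCLC array kept 23 to 30 of the 44 calls, namely 23 without cytokine replicate 1, 26 without cytokine replicate 2, 26 without Nanog replicate 1 and 30 without Nanog replicate 2.

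**Figure D3:**
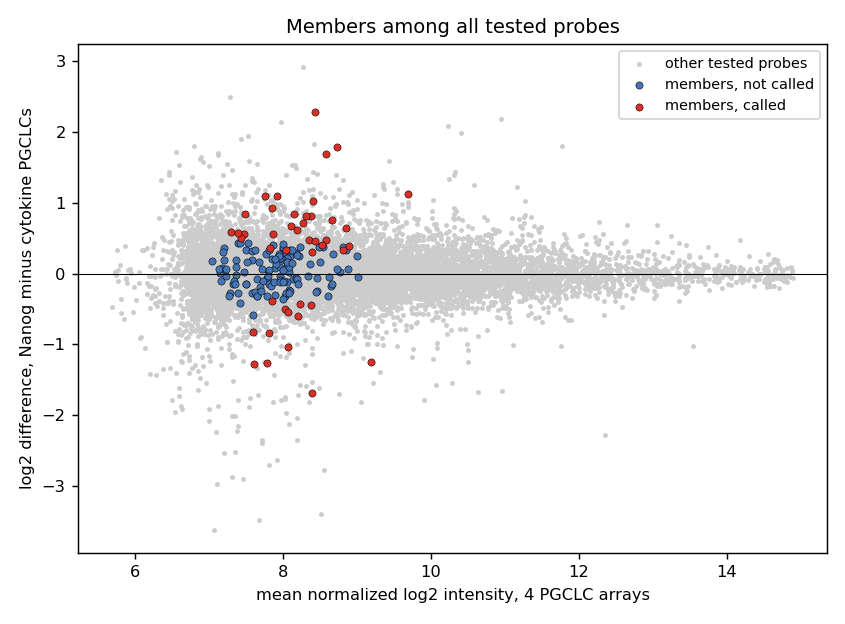
Nanog minus cytokine PGCLC difference (vertical axis, log2) against mean normalized log2 intensity on the 4 PGCLC arrays (horizontal axis) for all tested probes (grey) and members (coloured, called or not called). Members lie at low to middle intensity. Pdzk1 (2.28) is the highest member and Hey1 (-1.69) the lowest.

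Pdzk1, a scaffold with PDZ domains that anchors transporters and the HDL receptor, differed most between the groups. It read 9.64 and 9.50 in Nanog PGCLCs, 7.28 and 7.32 in cytokine PGCLCs, and 5.69 and 5.82 in mESCs on 1 member probe. On the other member probe it read 9.72 and 9.54 in Nanog PGCLCs, 7.85 and 7.83 in cytokine PGCLCs, and 6.62 and 6.68 in mESCs. The bounds over mESCs were at least 5.5-fold and 5.71-fold in Nanog PGCLCs on these probes. In cytokine PGCLCs they were only 1.14-fold and 1.65-fold. The Nanog minus cytokine difference was 2.28 ± 0.10 log2 units, or 4.84-fold (limma, adjusted p = 1.49e-05, where ± is the SE from 2 arrays in each group here and below), and 1.79 ± 0.10 on the second probe (adjusted p = 3.29e-05). Another probe of Pdzk1, no member, read 7.46 and 7.28 in Nanog PGCLCs, 6.14 and 6.25 in cytokine PGCLCs, and 6.03 and 6.20 in mESCs, and it was detected only on the Nanog arrays. Tnfsfm13, a joint transcript of the TNF ligand genes Tnfsf12 and Tnfsf13, read 9.35 and 9.49 in Nanog PGCLCs, 7.59 and 7.88 in cytokine PGCLCs, and 6.13 and 6.09 in mESCs. It was 3.22-fold higher in Nanog PGCLCs (log2 difference 1.69 ± 0.12, adjusted p = 0.000108), and its probe may share signal with both single genes. Kndc1 was 2.17-fold higher (log2 difference 1.12 ± 0.12, adjusted p = 0.00066).

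Genes are counted by role here and below, in groups made after the members were seen. Over all 157 member genes, 29 were called higher and 12 lower. Over all genes tested with 1 probe each, 11.3% were higher and 11.1% lower. Counts in small role groups are descriptions. Both proapoptotic members were higher in Nanog PGCLCs. Bik and Bcl2l11 (BIM) are BH3-only proteins, which start apoptosis by neutralising BCL2 relatives. Bik read 8.35 and 8.27 in Nanog PGCLCs, 7.18 and 7.25 in cytokine PGCLCs, and 5.93 and 5.66 in mESCs. Bcl2l11 read 9.04 and 9.05 in Nanog PGCLCs, 8.18 and 8.39 in cytokine PGCLCs, and 6.64 and 6.73 in mESCs. In both genes the Nanog arrays lay above the cytokine arrays, while the place of mESCs below them follows from the rule. The arrays of the PGCLC groups did not overlap for 62.4% of all tested probes. The difference was 1.10 ± 0.11 log2 units for Bik (adjusted p = 0.000674) and 0.76 ± 0.10 for Bcl2l11 (adjusted p = 0.00246). A second Bcl2l11 probe, detected only on the Nanog arrays, gave a Nanog minus cytokine difference of 0.94 log2 units. Its means lay 1.57 (Nanog) and 0.63 (cytokine) above the mESC mean. In cytokine PGCLCs it read 6.61 and 5.84, below the lowest detected signal of those arrays (6.91 and 6.88). The size of its difference is limited by that. The order of cytokine PGCLCs and mESCs on this probe rests on undetected signal, and nothing is concluded from it.

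The germ cell members gave different results. Rec8, the cohesin subunit of meiotic chromosomes, read 7.89 and 7.92 in Nanog PGCLCs, 8.60 and 8.41 in cytokine PGCLCs, and 6.60 and 6.35 in mESCs. It was lower in Nanog PGCLCs (log2 difference -0.60 ± 0.12, adjusted p = 0.0108). That call was lost without cytokine replicate 1 (adjusted p = 0.0859), without Nanog replicate 1 (0.0571) and without Nanog replicate 2 (0.0527). Tex14 differed by 0.25 ± 0.09 and did not pass the test (adjusted p = 0.0942).

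Of the 11 genes for ligands, receptors and surface proteins, 4 were higher (Tnfsfm13, Pdyn, Bst2 and Fgfr2), 1 was lower (Efnb1) and 6 were not called. Over all 157 member genes, 29 were higher and 12 lower. Pdyn encodes the opioid precursor prodynorphin and read 7.89 and 7.92 in Nanog PGCLCs, 7.05 and 7.08 in cytokine PGCLCs, and 5.11 and 5.02 in mESCs. Its difference was 0.84 ± 0.09 log2 units (adjusted p = 0.000826), and in cytokine PGCLCs it lay too close to the detection limit for a bound over mESCs. Fgfr2, a receptor for fibroblast growth factors, read 8.88 and 8.77 in Nanog PGCLCs, 8.41 and 8.29 in cytokine PGCLCs, and 6.78 and 6.98 in mESCs. Its difference of 0.48 ± 0.11 passed the test (adjusted p = 0.0206) but not without any 1 of the 4 PGCLC arrays (adjusted p = 0.0576 to 0.124). Efnb1, a membrane-bound ligand of Eph receptors encoded on the X chromosome, read 7.25 and 7.13 in Nanog PGCLCs, 8.15 and 7.88 in cytokine PGCLCs, and 5.96 and 5.92 in mESCs. It was 1.77-fold lower in Nanog PGCLCs (log2 difference -0.83 ± 0.12, adjusted p = 0.00259).

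Hey1, a transcriptional repressor that acts downstream of Notch, had the lowest difference of all members. It read 7.59 and 7.51 in Nanog PGCLCs, 9.20 and 9.27 in cytokine PGCLCs, and 6.11 and 6.21 in mESCs. The bounds over mESCs were at least 1.35-fold in Nanog PGCLCs and at least 4.36-fold in cytokine PGCLCs. Hey1 was 3.23-fold lower in Nanog PGCLCs (log2 difference -1.69 ± 0.09, adjusted p = 3.36e-05). Satb1, an organiser of chromatin loops, read 7.93 and 8.07 in Nanog PGCLCs, 7.65 and 7.65 in cytokine PGCLCs, and 6.05 and 6.10 in mESCs. Satb1 was higher by 0.36 ± 0.10 (adjusted p = 0.0348), a call that was lost on the authors' values (adjusted p = 0.0506) and without any 1 of the 4 PGCLC arrays (adjusted p = 0.0576 to 0.156). Sox4, a developmental transcription factor, read 7.99 and 7.91 in Nanog PGCLCs, 7.96 and 7.52 in cytokine PGCLCs, and 6.83 and 6.47 in mESCs, and was not called. The other 5 transcription and chromatin members were not called either.

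**Figure D4:**
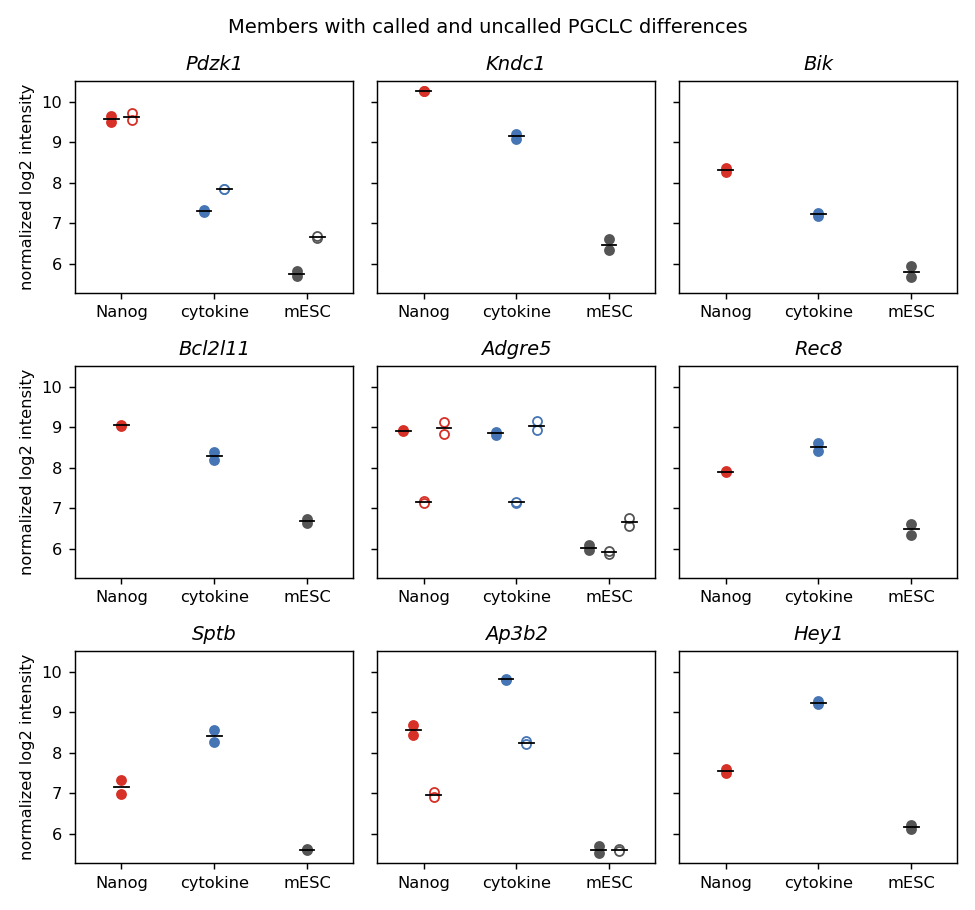
Normalized log2 intensity (vertical axis) of 9 members in Nanog PGCLCs, cytokine PGCLCs and mESCs (horizontal axis). Each point is 1 array, bars are group means, and filled and open points within a panel are different probes. Pdzk1, Kndc1, Bik and Bcl2l11 are highest in Nanog PGCLCs, Rec8, Sptb, Ap3b2 and Hey1 in cytokine PGCLCs, and Adgre5 is level between them.

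Regulators of small GTPases or of the cytoskeleton made up 18 genes, with 5 called higher, 1 called lower and 12 without a call. All 157 member genes together had 29 called higher and 12 lower. Aif1l, an actin-binding relative of the macrophage protein Aif1, read 8.91 and 8.94 in Nanog PGCLCs, 7.93 and 7.86 in cytokine PGCLCs, and 5.44 and 5.43 in mESCs. The difference was 1.03 ± 0.09 log2 units (adjusted p = 0.000314). The others higher were Kndc1, Rassf3, Dynlt3 and Arhgap44. Sptb, the beta-spectrin best known from the red cell membrane, read 6.99 and 7.32 in Nanog PGCLCs, 8.27 and 8.57 in cytokine PGCLCs, and 5.60 and 5.62 in mESCs. It was 2.4-fold lower in Nanog PGCLCs (log2 difference -1.26 ± 0.14, adjusted p = 0.000947). Of 6 tested endothelial and blood genes other than Pecam1, 3 (Hbb-bh1, Hba-x and Gata2) were also lower in Nanog PGCLCs, and Kdr (-0.08), Lyl1 (-0.09) and Hba-a1 (-2.35 ± 1.26, adjusted p = 0.222) were not called. Hbb-bh1, an embryonic beta-globin, read 5.70 and 6.17 in Nanog PGCLCs, 9.39 and 9.44 in cytokine PGCLCs, and 6.30 and 5.96 in mESCs. Hba-x, an embryonic alpha-like globin, read 5.29 and 5.23 in Nanog PGCLCs, 8.82 and 8.93 in cytokine PGCLCs, and 5.23 and 5.25 in mESCs. Of 15 endothelial and blood markers 7 had a named probe, and 2, 6 and 0 were detected on both arrays of Nanog PGCLCs, cytokine PGCLCs and mESCs. Their summed intensity was 699 to 707 in Nanog PGCLCs, 2619 to 2732 in cytokine PGCLCs and 578 to 3306 in mESCs, where Hba-a1 on mESC replicate 1 made up most of the upper value. The part of blood cells in the Sptb result was not tested. Pecam1, an adhesion protein of endothelium that germ cells also carry, read 7.09 and 7.27 in Nanog PGCLCs, 7.19 and 7.02 in cytokine PGCLCs, and 5.98 and 5.74 in mESCs, and was not called. Cldn5, a tight junction protein of endothelium, differed by 0.08 ± 0.14 between the PGCLC groups and was not called either.

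Vesicle traffic held 13 genes, of which 2 were higher (Copz2 and Flot1), 3 were lower (Ap3b2, Unc13b and Pacsin1) and 8 were not called. Among all 157 member genes, 29 were higher and 12 lower. Ap3b2 is the neuronal beta subunit of the AP-3 adaptor, which sorts cargo into vesicles. It read 8.69 and 8.43 in Nanog PGCLCs, 9.82 and 9.81 in cytokine PGCLCs, and 5.69 and 5.52 in mESCs. On its second member probe it read 7.03 and 6.91 in Nanog PGCLCs, 8.29 and 8.21 in cytokine PGCLCs, and 5.63 and 5.58 in mESCs. The probes differed in level by more than 1 unit but gave differences of like size, -1.25 ± 0.12 (adjusted p = 0.000432) and -1.28 ± 0.10 (adjusted p = 0.000133). On the second probe Nanog PGCLCs lay near the lowest detected signal of their arrays (6.91 and 6.88), too close for a bound over mESCs. The size of its difference is limited by that. Unc13b, a protein that primes vesicles for release, read 7.51 and 7.58 in Nanog PGCLCs, 8.66 and 8.52 in cytokine PGCLCs, and 6.13 and 6.36 in mESCs (difference -1.04 ± 0.11, adjusted p = 0.000778). Copz2, a coatomer subunit, was higher by 0.85 ± 0.10 (adjusted p = 0.0012). Another Copz2 probe was detected on both mESC arrays, at 7.71 and 7.32, and its Nanog minus cytokine difference was 0.71. Flot1, a lipid raft protein, was higher by 0.33 ± 0.09 (adjusted p = 0.0396), a call lost without any 1 of the 4 PGCLC arrays (adjusted p = 0.119 to 0.148).

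The metabolic enzymes were the group with most members, and 6 of 22 genes were called higher, 1 (Car12) lower and 15 in neither direction. Over all 157 member genes, 29 were called higher and 12 lower. Rimkla, the ligase that makes the neuropeptide N-acetylaspartylglutamate, read 8.41 and 8.53 in Nanog PGCLCs, 7.45 and 7.29 in cytokine PGCLCs, and 6.11 and 6.11 in mESCs on 1 probe. On the other it read 8.80 and 8.77 in Nanog PGCLCs, 8.05 and 7.89 in cytokine PGCLCs, and 6.88 and 7.12 in mESCs. Both probes passed the test, with differences of 1.10 ± 0.10 (adjusted p = 0.000396) and 0.81 ± 0.11 (adjusted p = 0.00274). Arsa, the lysosomal arylsulfatase A, read 8.38 and 8.26 in Nanog PGCLCs, 7.43 and 7.34 in cytokine PGCLCs, and 6.12 and 6.04 in mESCs, a difference of 0.93 ± 0.10 (adjusted p = 0.000646). Egln3, a prolyl hydroxylase that marks HIF for destruction, read 7.48 and 7.35 in Nanog PGCLCs, 7.32 and 7.31 in cytokine PGCLCs, and 6.04 and 6.28 in mESCs, and was not called. Txnrd2, the thioredoxin reductase of mitochondria, differed by 0.05 ± 0.12 between the PGCLC groups, whose arrays overlapped. The second Gstk1 probe, with 8.85 and 8.78 in Nanog PGCLCs, 8.52 and 8.55 in cytokine PGCLCs, and 6.58 and 6.18 in mESCs, was not called.

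Of the 9 members of the cilium, centrosome and spindle, 1 was lower (Haus5, a spindle subunit of the augmin complex) and 8 were not called, with differences from -0.50 to 0.09 log2 units. The counts of this and the further small groups stand beside 29 higher and 12 lower of all 157 member genes. The Haus5 call (adjusted p = 0.018) was lost without cytokine replicate 1 (0.121), cytokine replicate 2 (0.0596) or Nanog replicate 1 (0.0926) and with median scaling (0.0597). Another Haus5 probe read 7.54 and 7.51 in Nanog PGCLCs, 7.57 and 7.61 in cytokine PGCLCs, and 6.99 and 6.72 in mESCs, a difference of -0.06. The 9 genes included Ift140 and Ift43 of intraflagellar transport and Tmem237, Cc2d2a and Ahi1 of the ciliary transition zone. Cenpk, a kinetochore protein, read 7.98 and 8.24 in Nanog PGCLCs, 7.76 and 8.40 in cytokine PGCLCs, and 6.44 and 6.22 in mESCs, so its replicates differed by more than the groups. Of 5 DNA repair genes, 1 was higher (Primpol, 0.33 ± 0.10, adjusted p = 0.0492) and 4 (Fancd2, Xpc, Smarcal1 and Ercc6l2) were not called. The Primpol call was also lost without any 1 of the 4 PGCLC arrays. Of 3 kinases, Mapk13 (a p38 kinase) and Pi4k2b were higher and Map3k12 was not called. Mapk13 read 8.85 and 8.61 in Nanog PGCLCs, 7.99 and 7.83 in cytokine PGCLCs, and 6.28 and 6.09 in mESCs (difference 0.82 ± 0.12, adjusted p = 0.00364). A brighter Mapk13 probe was detected on both mESC arrays, at 8.13 and 8.06, and its Nanog minus cytokine difference was 0.48. Of 5 RNA-binding genes, Prkra was higher, Tnrc6c was lower and 3 were not called, among them Tial1 at 7.11 and 7.44 in Nanog PGCLCs, 7.39 and 7.47 in cytokine PGCLCs, and 6.26 and 5.98 in mESCs.

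**Figure D5:**
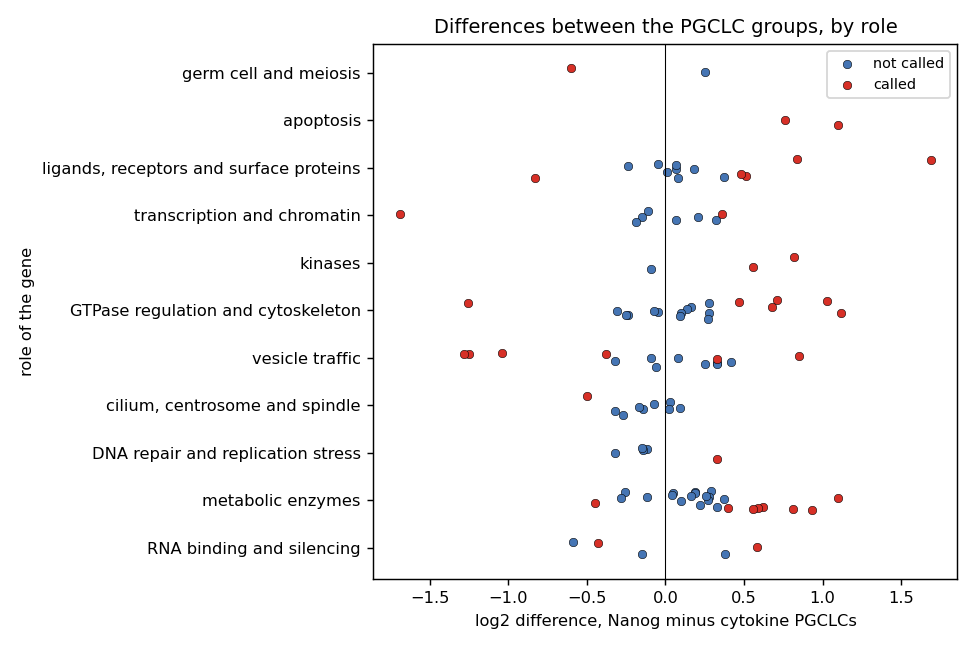
Nanog minus cytokine PGCLC difference (horizontal axis, log2) of the member probes whose gene was placed in a role group (vertical axis). Each point is a probe, red where called and blue where not, and vertical scatter within a group has no meaning. Called probes of the apoptosis and kinase groups lie to the right of 0, and the cilium group lies between -0.50 and 0.09.

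The other 59 genes were placed in no role group. Fbxo31, an F-box protein that marks proteins for degradation, read 7.23 and 7.57 in Nanog PGCLCs, 8.21 and 8.26 in cytokine PGCLCs, and 6.11 and 6.19 in mESCs, and was lower in Nanog PGCLCs (log2 difference -0.84 ± 0.12, adjusted p = 0.00355). Pnkd read 9.20 and 9.16 in Nanog PGCLCs, 8.59 and 8.49 in cytokine PGCLCs, and 6.45 and 6.77 in mESCs, and was higher by 0.64 ± 0.12 (adjusted p = 0.00979). The Pnkd call was lost without cytokine replicate 1 (adjusted p = 0.0544), cytokine replicate 2 (0.0758) or Nanog replicate 1 (0.0542). BC028528 read 9.11 and 9.06 in Nanog PGCLCs, 8.80 and 8.60 in cytokine PGCLCs, and 7.02 and 7.16 in mESCs on its called probe (0.39 ± 0.11, adjusted p = 0.04, and 0.0711 to 0.202 without any 1 PGCLC array). Its other probe read 7.39 and 7.84 in Nanog PGCLCs, 7.19 and 7.19 in cytokine PGCLCs, and 5.49 and 5.66 in mESCs and was not called. Fam83g was at 8.25 and 8.41 in Nanog PGCLCs, 8.23 and 8.48 in cytokine PGCLCs, and 6.34 and 6.49 in mESCs, with overlapping PGCLC arrays. Nhsl1, at the edge of the rule, read 7.72 and 7.56 in Nanog PGCLCs, 7.91 and 7.98 in cytokine PGCLCs, and 6.75 and 6.48 in mESCs.

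Other probes of the same genes bear on how far absence in mESCs holds for the gene and not only for the probe. Of the 157 genes, 43 had 59 further named probes. For 20 of these 43 genes another probe was detected on both mESC arrays, and for 29 of the 43 on at least 1. Signal for those 29 genes was thus present in mESCs on another probe. For the other 128 genes no other probe was detected there or none existed. Most of the 128 had no further named probe, so absence of the gene could not be checked for them. Of the 59 probes 52 lay above the mESC mean in both PGCLC groups and 6 below it in both. Some of them were not detected in mESCs. The same share over all probes was not counted, so the counts here are descriptions. Among the 26 probes detected on both mESC arrays, 24 lay above the mESC mean in both PGCLC groups. Skil, a repressor of SMAD signalling, read 9.97 and 9.77 in Nanog PGCLCs, 9.59 and 9.70 in cytokine PGCLCs, and 7.38 and 7.82 in mESCs on such a probe. For Prmt2 the other probe lay above the mESC mean by 1.48 log2 units in Nanog PGCLCs and by 1.39 in cytokine PGCLCs. In both genes the detected probe kept the same order of PGCLCs above mESCs. Luc7l2 and Map3k12 each had a probe detected on all arrays that ran the other way, at -0.61 and -0.42 log2 units for Nanog PGCLCs minus mESCs and -0.30 and -0.18 for cytokine PGCLCs minus mESCs. A further Luc7l2 probe detected on all arrays lay above the mESC mean by 0.27 in Nanog PGCLCs and 0.07 in cytokine PGCLCs. For Fbxo31 the Nanog minus cytokine difference was -0.52 and -0.21 on the probes detected in all groups. In mESCs these probes read 8.62 and 8.54, and 8.52 and 8.65. On them Nanog PGCLCs lay only 0.10 and 0.11 above the mESC mean, and cytokine PGCLCs 0.62 and 0.32.

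Of 25 gene lists for pathways and cell types, 9 held a member and 16 held none. The lists are described by the genes that are not members, each read by 1 probe and tested over 6823 genes, of which 11.3% were higher and 11.1% lower in Nanog than in cytokine PGCLCs and the median difference was -0.02. In the Notch list, which holds Hey1, 1 of 4 other genes was higher (Hes6, 0.37 ± 0.10, adjusted p = 0.0378) and 3 were not called (median 0.01). In the FGF and ERK list, which holds Fgfr2, 4 of 9 other genes were lower and 5 were not called (median -0.24). Dusp6, a phosphatase induced by ERK, was among those lower, at 10.22 and 10.09 in Nanog PGCLCs, 10.71 and 10.70 in cytokine PGCLCs, and 8.97 and 9.08 in mESCs (difference -0.56 ± 0.09, adjusted p = 0.00526). All 4 other tested genes of the KIT, CXCL12 and migration list, which holds Efnb1, were lower (median -0.86). The largest of these was Cxcl12, the chemokine that guides germ cells, at 6.33 and 6.71 in Nanog PGCLCs, 8.83 and 9.01 in cytokine PGCLCs, and 5.59 and 5.55 in mESCs (-2.40 ± 0.13, adjusted p = 2.04e-05).

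In the hypoxia and glycolysis list, which holds Egln3, 5 of 16 other genes were called higher, 2 lower and 9 in neither direction (median 0.19). Pdk1, which turns pyruvate away from mitochondria, was higher by 0.94 ± 0.10 (adjusted p = 0.000601). In the primed epiblast and Nodal list, which holds Sox4, 5 of 10 other genes were called higher, 1 lower and 4 in neither direction (median 0.40). Lefty1, a Nodal antagonist, was higher by 2.19 ± 0.09 (adjusted p = 7e-06). Of 21 other DNA and chromatin modifiers, beside Satb1, 6 were called higher, 3 lower and 12 in neither direction (median 0.03). All 4 other trophoblast list genes, beside Fgfr2, were lower (median -1.09), and 3 of 6 other endothelial and blood genes, beside Pecam1, were lower and 3 were not called (median -2.35). None of the 6 other synapse genes, beside Ap3b2 and Kndc1, was called by limma, and 3 had an unadjusted p below 0.05.

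Against mESCs, the same non-member genes were also counted. Over all 6823 genes, members not left out, 28.2% were higher and 25.9% lower in Nanog PGCLCs. In cytokine PGCLCs 29.9% were higher and 24.8% lower. Members were chosen for lying above mESCs, so leaving them out can lower the list counts of higher genes. The counts and these shares are therefore not like for like, and the counts are descriptions. The comparisons of both PGCLC groups with mESCs share the mESC arrays. In the FGF and ERK list 5 of 9 genes were higher in each PGCLC group, 2 of them (Dusp4 and Egr1) left out of the members by symbol, so that their distance from mESCs is what the rule selects on. In the hypoxia and glycolysis list 8 of 16 were higher and 2 lower in Nanog PGCLCs, and 9 higher and 3 lower in cytokine PGCLCs. These counts include Ankrd37 and Bhlhe40, which were also left out by symbol, and for Ankrd37, detected on all PGCLC arrays and no mESC array, the rule selects on the same distance. In the synapse list 1 of 6 was higher and 3 lower in Nanog PGCLCs, and 1 higher and 2 lower in cytokine PGCLCs. In the Notch list 1 of 4 was higher in Nanog PGCLCs (Notch4), and 1 was higher and 1 lower in cytokine PGCLCs.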

How the data were processed

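Total RNA from 6 samples was labelled with biotin and hybridised to Illumina mouse BeadChips, per the labels' protocols. The deposited intensity values are scanner summaries for 45281 probes per array, and the deposited detection p-values give each probe's rank within negative control beads. For the authors' log2 table (11542 probes) the submitters' processing notes name limma, and no source used here gives its background treatment.

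Here, intensities were background corrected with normexp in limma 3.58.1 (R 4.3.3), with controls inferred from the detection p-values and an offset of 16, then quantile normalized and log2 transformed. The 10673 probes detected (p below 0.01) on 2 or more of 6 arrays were fitted with lmFit and eBayes in 1 model of 3 groups (degrees of freedom 3 residual, 4.92 prior). Two-sided p-values were adjusted by Benjamini-Hochberg over all these probes, with calls below 0.05. The steps were tested on simulated data. Gene names came from the platform annotation.

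Named members were the 15 with the highest smaller bound over mESCs, the 8 called highest and 8 called lowest between PGCLC groups, the 5 with least difference among brighter members, all in a gene list, all genes with several member probes and the 3 on either side of the threshold. Other members were chosen after their values were seen. Members and lists were chosen with earlier results of these data known, and role groups after the members were seen.

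Alternatives covered the background correction and offset, the normalization, the authors' values, the filter on detection, a variance trend, the PGCLC arrays alone, 1 probe per gene, the replicate number as a block, each array left out and other thresholds of the rule. Replicate numbers did not pair the samples (correlation of deviations 0.00154 to 0.076).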

Additional observations from a re-analysis of the deposited data

Results flagged for a closer look

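Outside the named probes, 34 probes without a gene name met the same detection and difference criteria, out of 81 with the same detection pattern. They were looked at because the comparisons above use named probes alone. Of these 34 probes, 4 (11.8%) were called higher and 3 (8.82%) lower in Nanog than in cytokine PGCLCs (limma, adjusted over all tested probes), near the 10.4% and 9.72% of all tested probes.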

How the results depend on the processing

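With other versions of the rule, 365 probes were members at a least difference of 0.2, 34 at 0.8, and 430 with the difference read from the values normalized here. The other readings of the rule gave 115, 135 and 191 probes, and leaving out 1 array gave 166 to 204 (an alternative added after seeing the data). With each array left out in turn, 17 to 34 members were called higher and 7 to 13 lower in Nanog PGCLCs, with 783 to 2160 calls among all probes against 2145, and a median member difference of 0.08 to 0.14. Where a group then has 1 array, it is assumed to vary like the others. Leaving out a PGCLC array lowered the number of member calls, and leaving out an mESC array raised it to 34 higher and 13 lower. With the replicate number as a block, 27 members were higher and 12 lower, 2074 of all probes were called and 39 of 44 member calls were kept. In the other settings that keep all 164 members, 38 to 44 calls were kept, and 37 of 37 with 1 probe per gene. Median scaling moved the median of all probes to 0.05 log2 units and lost the calls of Ano9, Haus5, Car12, Tnrc6c, Pacsin1 and Primpol. No member's call turned round in any of these settings. A signal near the detection limit in mESCs, with 2 arrays per group, limits what can be said of absence there.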

Other observations

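Of the 157 member genes, 8 (5.1%) lie on the X chromosome, against 222 of 6819 tested genes (3.26%), which is a description with no test. Among them Dynlt3, a light chain of the dynein motor, was higher in Nanog PGCLCs, at 8.46 and 8.43 in Nanog PGCLCs, 7.75 and 7.79 in cytokine PGCLCs, and 6.46 and 6.68 in mESCs (log2 difference 0.68 ± 0.10, limma adjusted p = 0.00409). Efnb1 was lower. Med14, Tro, Firre, Pls3, Ints6l and Map7d3 were not called. Firre, a long noncoding RNA gene, read 7.58 and 7.61 in Nanog PGCLCs, 7.62 and 7.96 in cytokine PGCLCs, and 6.12 and 6.25 in mESCs.

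The opposite detection pattern, on both mESC arrays and on no PGCLC array, was met by 131 named probes, against 581 with the pattern of the members. These counts are not like for like. The patterns ask for detection on different numbers of arrays. Fewer probes of any kind were also detected on the mESC arrays (9220 and 8788) than on the PGCLC arrays (9871 to 10028).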
